A study of Mus musculus with 22 samples.

Results

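Whole bone marrow that grew from blood stem and progenitor cells edited with a guide RNA against Runx1 was compared with marrow that grew from cells given a control guide. The members are the 3 libraries of the sgRunx1 + sgLuc group and the 6 of the sgLuc group, chosen by their labels. They make 9 of the 22 libraries of the series, and all autosomal genes were described. Genes on X and Y were left out because the sgLuc group differs from every edited group in them. In the sgRunx1 + sgLuc group, the transplanted cells were LSK cells, a marrow fraction without lineage markers that carries Sca-1 and Kit and is rich in stem cells. They came from Cas9 knock-in mice and were given a Runx1 guide together with a luciferase guide. In the sgLuc group the same kind of cells received the luciferase guide, for which mouse cells hold no target. All recipients were C57BL/6J mice irradiated with 7 Gy, so every library, controls included, comes from a transplant of Cas9-carrying cells. Host cells that survived the irradiation may remain. Marrow was taken when a mouse showed leukaemia or else at 6 months. Which of these held for a given mouse, and the age and sex of the mice, are not in the labels. The groups with a guide against Ezh2 or Bcor in place of Runx1 (sgEzh2 + sgLuc and sgBcor + sgLuc, 3 libraries each) served as a further point of reference.

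RUNX1 is the DNA-binding subunit of core-binding factor, a transcription factor that it forms with CBFB. It is needed for the first blood stem cells of the embryo to arise, and in adult marrow for the maturation of megakaryocytes, which shed platelets, and of lymphocytes. Inherited loss of a RUNX1 copy causes a platelet disorder with a tendency to leukaemia, and RUNX1 is often mutated in acute myeloid leukaemia.

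Each value below is a level in TMM-scaled CPM (counts scaled to the library's counted reads and corrected for composition) or a log2 fold change of sgRunx1 + sgLuc over sgLuc ± SE from the edgeR quasi-likelihood test. Genes with an FDR (adjusted by Benjamini-Hochberg) under 0.05 are named as called. Libraries held 39690068 to 45085176 counted reads in the sgRunx1 + sgLuc group and 30023722 to 57175449 in the sgLuc group. Transcripts of granulocytes and their precursors were abundant in both groups, with S100a8 at 14488 to 18979 CPM in sgRunx1 + sgLuc marrow and 6838 to 17732 CPM in sgLuc marrow. Those of red cells were scarce, with the globin gene Hbb-bs at 15.6 to 40.3 CPM in sgRunx1 + sgLuc and 13 to 77.7 CPM in sgLuc marrow, so the libraries hold little of the erythroid part of whole marrow. Reads of 4 Y-linked genes numbered 0 in every edited library and 4387 to 11109 in each sgLuc library. In the comparison with sgLuc the guide can therefore not be told apart from the sex of the cells, nor from a donor or batch that went with it. The sgEzh2 + sgLuc and sgBcor + sgLuc libraries share the pattern of the edited groups and were compared in a contrast of their own, given last. Library sgLuc replicate 4 stood apart in stress-response and platelet genes, and sgEzh2 + sgLuc replicate 3 nearly lacked granulocyte transcripts (S100a8 at 63.2 CPM) and was rich in those of T cells, with 4619.9 CPM summed over the T cell list against 153 to 338 CPM in the other 5 single-guide libraries. In bulk marrow, fewer cells of a type and less RNA per cell cannot be told apart.

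Runx1 mRNA was not detectably lower with the Runx1 guide. Runx1 (GRCm38 chromosome 16, 92601466 to 92826149, strand minus) had 136, 115 and 93.1 CPM in the 3 sgRunx1 + sgLuc libraries, against 87 to 99.8 CPM with a median of 94.4 in the 6 sgLuc libraries, and did not pass the test (log2 fold change 0.28 ± 0.14, FDR 0.226). The groups overlapped, since the lowest edited library lay within the sgLuc range. The table counts reads per gene and does not show the edited site, so these values do not measure editing. Of 14 tested genes of the RUNX family and its partners, 1 rose and 1 fell. Runx3, a paralog that binds the same DNA motif and acts in T and NK cells, had 70.4, 71.6 and 66.8 CPM against 36.2 to 48.5 CPM with a median of 42.3, with no overlap (log2 fold change 0.72 ± 0.13, FDR 0.00279). Cbfa2t3, a corepressor found in complexes with RUNX1 and TAL1, had 33.8, 36.8 and 29.2 CPM against 54.7 to 90.7 CPM with a median of 63.8 (log2 fold change -1.0 ± 0.22, FDR 0.00962). Every edited library lay below every control library for this gene, and its call was lost without sgRunx1 + sgLuc replicate 1 (FDR 0.0564) or 3 (FDR 0.069). Cbfa2t2, which encodes a related corepressor, did not pass the test, although its groups did not overlap (log2 fold change 0.37 ± 0.13, FDR 0.0991). The list's median log2 fold change was 0.14, against -0.04 over all autosomal genes tested.

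Over all genes, more fell than rose. Of 16987 autosomal genes tested, 1385 (8.15%) were called, 461 higher (2.71%) and 924 lower (5.44%) in sgRunx1 + sgLuc marrow. The decreases were larger: the median log2 fold change of called genes was 1.11 among those that rose and -2.75 among those that fell, and absolute values above 1 were reached by 252 and 716 genes. The CPM of the groups did not overlap in 441 of the 461 genes called higher and in 865 of the 924 called lower. Over all tested genes, called or not, the groups did not overlap with sgRunx1 + sgLuc on top in 1566 genes (9.22%) and with sgRunx1 + sgLuc below in 2054 (12.1%). The number of calls depended on single libraries. Leaving out the edited replicate 1, 2 or 3 gave 538, 491 or 709 calls. Leaving out sgEzh2 + sgLuc replicate 3, a library of neither group, gave 2559 among 17471 autosomal genes tested. That library bears on this contrast through the shared spread, the gene filter and the scaling. The labels do not say that the libraries of a group come from separate donors, so that the p-values measure the spread between these samples.

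**Figure D1:**
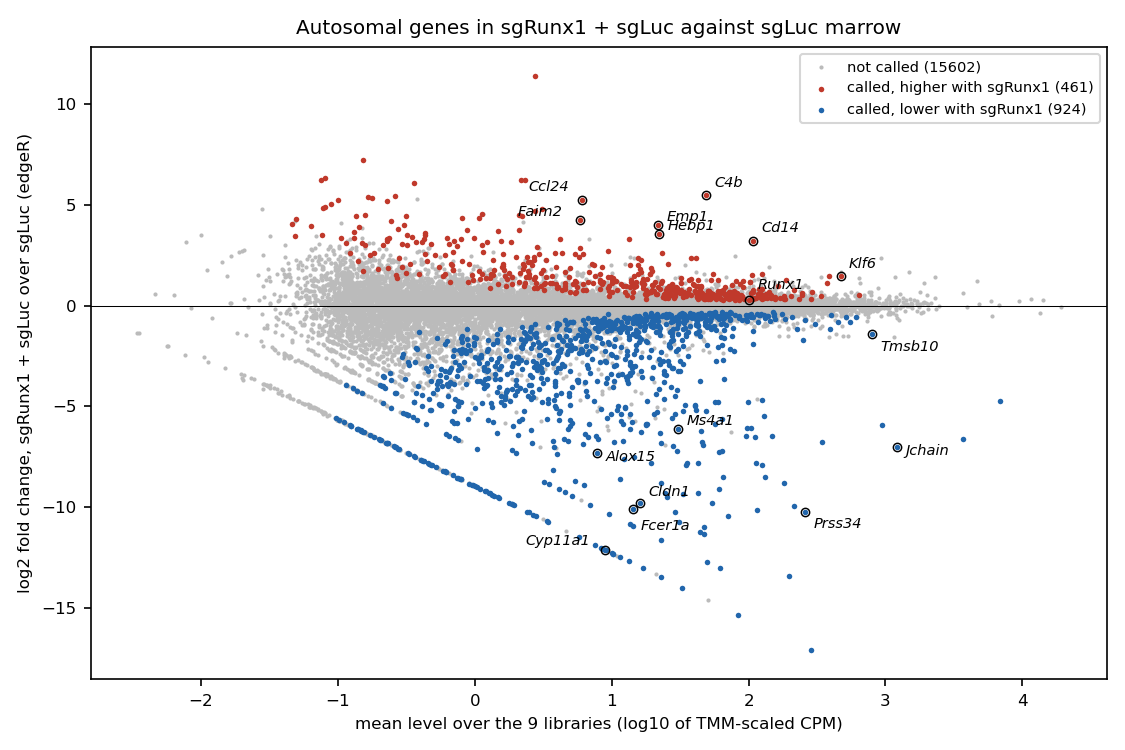
Fitted log2 fold change of sgRunx1 + sgLuc over sgLuc (edgeR, vertical axis) against the mean level over the 9 libraries (log10 of TMM-scaled CPM, horizontal axis), 1 point per autosomal gene tested, with 2 genes without a read in the 9 libraries left out. The 924 blue genes called lower reach far larger changes than the 461 red genes called higher, and Runx1 lies among the grey genes not called; points on the straight lower edge, such as Cyp11a1, had no read with sgRunx1, so that their fitted value is not a measured fold.

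**Figure D2:**
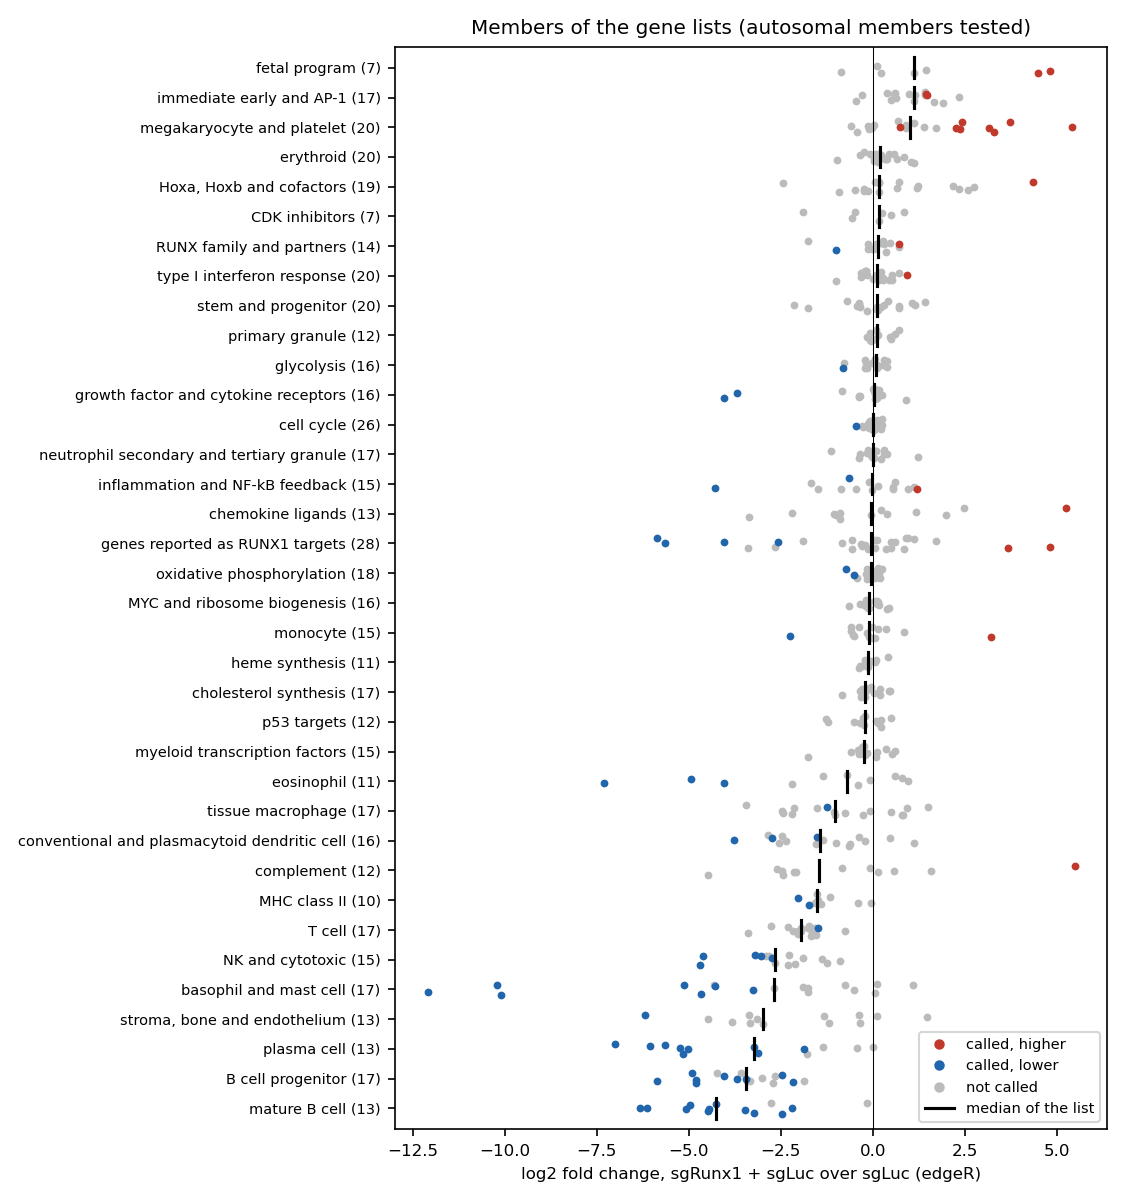
Log2 fold change of sgRunx1 + sgLuc over sgLuc (horizontal axis) for every tested autosomal member of 36 gene lists, with the number of members tested in brackets, called members in colour and each list's median as a black bar. Lists are sorted by median, from mature B cells with 11 of 13 members called lower at the bottom to the fetal, immediate early and platelet lists at the top.

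B lineage genes fell. Of 17 B cell progenitor genes 9 fell and 0 rose, of 13 mature B cell genes 11 fell and 0 rose, and of 13 plasma cell genes 9 fell and 0 rose, with median log2 fold changes of -3.44, -4.26 and -3.23. Cd79a, a signalling chain of the B cell receptor, had 9.78, 3.29 and 2.87 CPM with sgRunx1, against 82.2 to 218 CPM with a median of 143 in sgLuc marrow (log2 fold change -4.79 ± 0.96, FDR 0.00519). Replicate 1 was the highest of its edited libraries and still far below the lowest control. The adaptor gene Blnk (log2 fold change -3.44 ± 0.83, FDR 0.0155) and the kinase gene Blk (log2 fold change -5.85 ± 1.22, FDR 0.00667), whose products carry the receptor's signal, fell as well. Among mature B cell genes, Ms4a1, which encodes CD20, had 1.15, 0.314 and 0.517 CPM against 23.5 to 73.3 CPM with a median of 40.8 (log2 fold change -6.12 ± 0.90, FDR 6.77e-04). Fcmr, the Fc receptor for IgM, had 1.02, 0.224 and 0.0259 CPM against 15.9 to 51.6 CPM with a median of 35 (log2 fold change -6.31 ± 1.00, FDR 0.00101). The follicle-homing receptor gene Cxcr5 (log2 fold change -4.26 ± 0.64, FDR 7.10e-04) and the inhibitory receptor gene Cd72 (log2 fold change -4.48 ± 0.73, FDR 0.00123) also fell, with no overlap between groups. The mean level of the mature B cell list was 0.50 to 1.32 log2 CPM in sgRunx1 + sgLuc libraries and 3.89 to 5.28 in sgLuc libraries. Blk lost its call without sgRunx1 + sgLuc replicate 2 (FDR 0.0512). Blnk lost it without sgRunx1 + sgLuc replicate 2 (FDR 0.102) or 3 (FDR 0.0858). In all, 5, 1 and 2 progenitor genes passed without sgRunx1 + sgLuc replicate 1, 2 and 3.

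Plasma cell genes and the immunoglobulin segments were far lower. Jchain, the joining chain of secreted IgM and IgA, had 24.4, 8.69 and 9.16 CPM in sgRunx1 + sgLuc marrow, against 266 to 3617 CPM with a median of 1728 in sgLuc marrow (log2 fold change -7.01 ± 1.09, FDR 9.38e-04). The lowest control, sgLuc replicate 4, still held more than the highest edited library. Derl3, a component of the degradation system of the endoplasmic reticulum, had 0.766, 0.0896 and 0.879 CPM against 4.21 to 35.8 CPM with a median of 18.3 (log2 fold change -5.01 ± 0.79, FDR 9.38e-04). Eaf2, a transcription elongation factor, fell to 0.408, 0.829 and 0.828 CPM, against 1.98 to 9.46 CPM with a median of 6.27 (log2 fold change -3.11 ± 0.54, FDR 0.00177). Iglv1, a lambda light chain segment, showed 3.85, 0.336 and 2.92 CPM against 76.9 to 244 CPM with a median of 147 (log2 fold change -6.04 ± 1.01, FDR 0.00153), a value that is uncertain because reads of near-identical segments can be split between them. Of 191 tested immunoglobulin V segments 119 fell and 0 rose, of 12 constant segments 10 fell, and of 19 T cell receptor V segments 2 fell. Constant segments together took 387 to 667 CPM in sgRunx1 + sgLuc libraries and 2856 to 37229 CPM in sgLuc libraries, and V segments 42.9 to 149 CPM and 1014 to 13068 CPM. Each of the 4 plasma cell genes named kept its call without any single library.

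**Figure D3:**
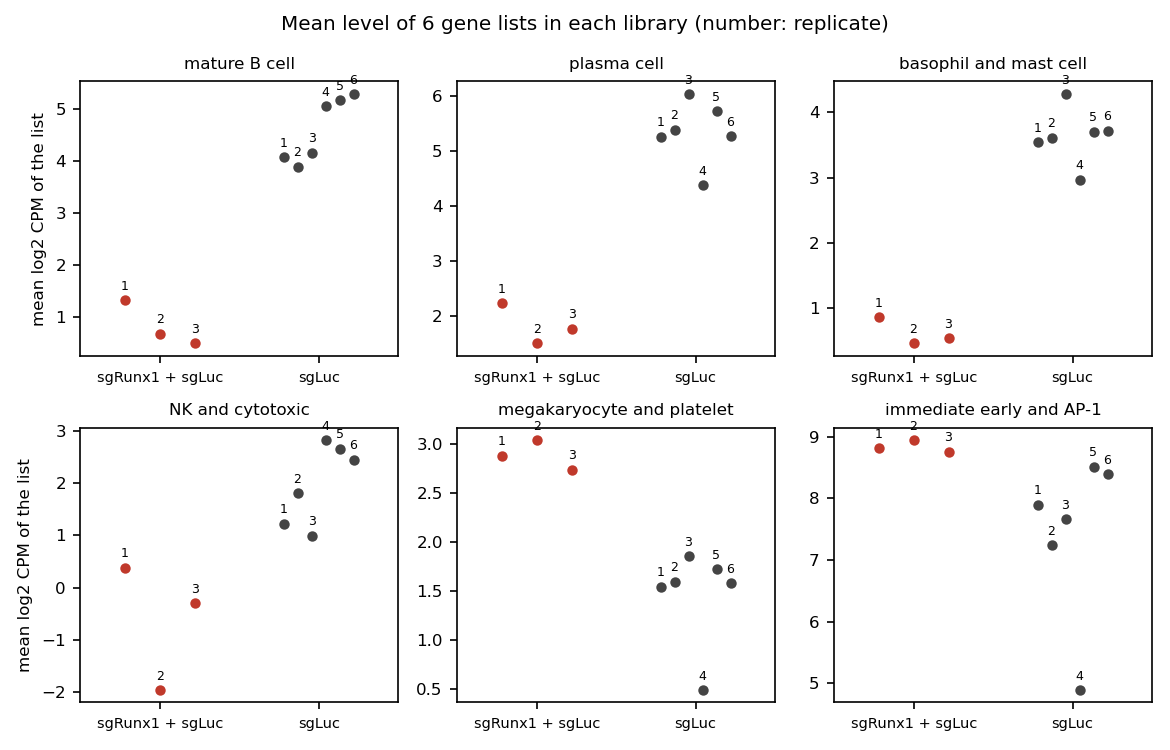
Mean log2 CPM of the tested members of 6 gene lists in each library (vertical axes), with the 3 sgRunx1 + sgLuc libraries on the left and the 6 sgLuc libraries on the right, each marked with its replicate number. The edited libraries lie below all controls in the 4 lymphoid and basophil panels and above all controls in the platelet and immediate early panels, where sgLuc replicate 4 is far below the other controls.

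Basophil genes were among those with the largest decreases. Of 17 tested basophil and mast cell genes 7 fell and 0 rose; the list's median log2 fold change was -2.69, or -1.89 with the genes without reads set to their bound. Prss34, a serine protease of basophils (GRCm38 chromosome 17, 25298394 to 25300165, strand plus), had 0.791, 0.0224 and 0.181 CPM with sgRunx1, against 189 to 647 CPM with a median of 353 in sgLuc marrow (log2 fold change -10.20 ± 1.62, FDR 0.00104). Fcer1a, the ligand-binding chain of the high-affinity IgE receptor, had 2 reads over the sgRunx1 + sgLuc libraries and 4500 over the sgLuc libraries, a level 1307 times (95% interval 362 to 10796) lower with sgRunx1 (FDR 0.00194). Such intervals cover counting error only. Cyp11a1, the enzyme that starts steroid synthesis by cutting the side chain of cholesterol, had 0 reads in all sgRunx1 + sgLuc libraries and 4.15 to 25.3 CPM with a median of 12.7 in sgLuc libraries, at least 544-fold lower when 3 reads over the group are taken as the floor (FDR 6.77e-04). Cd200r3, an activating receptor of basophils and mast cells, had 0.179, 0.582 and 0.284 CPM against 4.47 to 24.3 CPM with a median of 10.5 (log2 fold change -5.12 ± 1.04, FDR 0.00546). The protease gene Mcpt8, the IgE receptor chain gene Ms4a2 and the cytokine gene Il6 were also called lower. The other 10 genes did not pass the test, among them Gata2, a transcription factor that basophils and stem cells share (18.4, 19.5 and 17.2 CPM against 24.8 to 104 CPM with a median of 58.1, FDR 0.144). All 4 named basophil genes kept their call without any single library, while the list held 4 genes called lower, not 7, without each sgRunx1 + sgLuc library. Without sgEzh2 + sgLuc replicate 3, 1 gene of the list was called higher.

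Some eosinophil genes fell. Of 11 tested, 3 fell and 0 rose (median -0.69), and 1 rose without sgEzh2 + sgLuc replicate 3. Alox15, a lipoxygenase of eosinophils and some macrophages, had 0.0255, 0.157 and 0.0259 CPM against 5.93 to 19.1 CPM with a median of 11.1 (log2 fold change -7.29 ± 1.12, FDR 7.82e-04). Ear2, an eosinophil-associated ribonuclease with near-identical relatives that can share its reads, had 2.17, 2.22 and 1.45 CPM against 27.4 to 89.6 CPM with a median of 59.3 (log2 fold change -4.94 ± 0.79, FDR 0.00115). Il5ra, the receptor chain for the eosinophil growth factor interleukin 5, had 0.255, 0.134 and 0 CPM against 1.14 to 2.77 CPM with a median of 2.32 (log2 fold change -4.04 ± 0.81, FDR 0.00453). No sgRunx1 + sgLuc library overlapped the controls in these 3 genes, and the calls held without each single library.

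**Figure D4:**
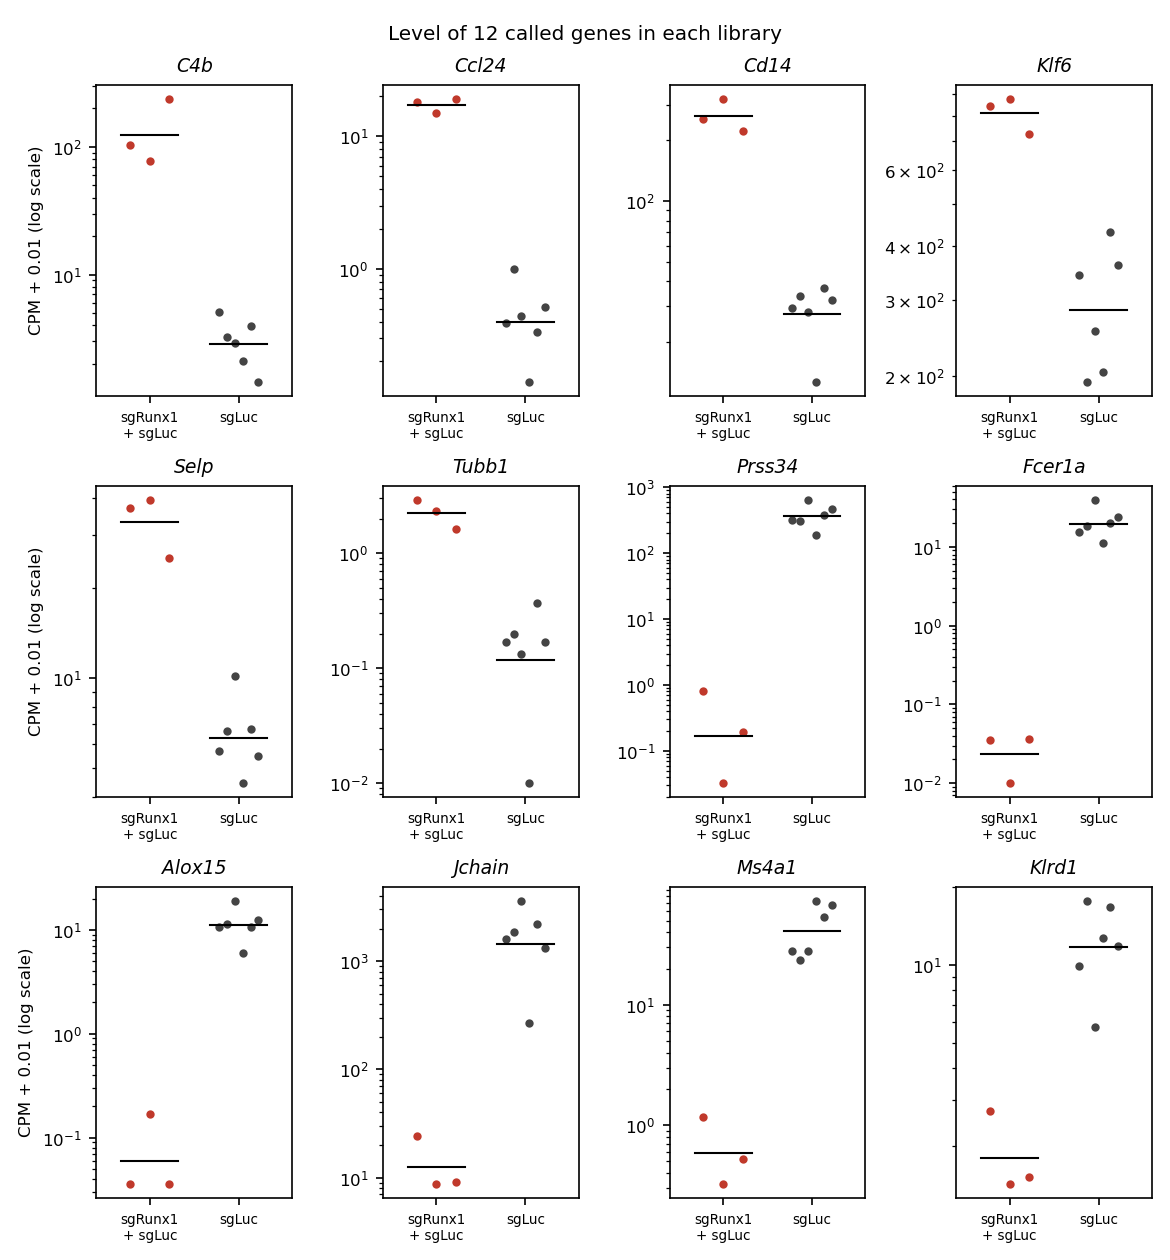
Level of 12 called genes in each library (vertical axes, CPM + 0.01 on a log scale), with the 3 sgRunx1 + sgLuc libraries on the left and the 6 sgLuc libraries on the right of each panel and the geometric mean as a bar. The groups do not overlap in any panel; C4b to Tubb1 are higher and Prss34 to Klrd1 lower with sgRunx1, and sgLuc replicate 4 is the lowest control for Cd14 and Jchain.

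NK cell genes fell, while most T cell genes were low without passing the test. Of 15 NK and cytotoxic genes 5 fell and 0 rose (median -2.64), and 3, 1 and 1 passed without sgRunx1 + sgLuc replicate 1, 2 and 3. Klrd1, which encodes the CD94 receptor, had 2.71, 1.41 and 1.5 CPM against 5.76 to 17.8 CPM with a median of 12.3 (log2 fold change -2.74 ± 0.64, FDR 0.0123). Klrb1c, which encodes NK1.1, had 0.715, 0.202 and 0.414 CPM against 2.21 to 7.97 CPM with a median of 3.45 (log2 fold change -3.18 ± 0.71, FDR 0.00909). Gzma, a granzyme of cytotoxic granules, had 0.332, 0.179 and 0.129 CPM against 0.678 to 15.8 CPM with a median of 4.45 (log2 fold change -4.69 ± 1.28, FDR 0.0294). In none of the 3 did an edited library reach the lowest control. Klra8, an activating receptor of a family with many near-identical copies, had 0.128, 0.134 and 0.0259 CPM against 0.37 to 6.19 CPM with a median of 1.93 (log2 fold change -4.61 ± 1.00, FDR 0.00766). Of 17 T cell genes only the lymphotoxin gene Ltb was called, with 34.9, 35.7 and 32.8 CPM against 50.2 to 139.6 CPM with a median of 94.7 (log2 fold change -1.48 ± 0.41, FDR 0.0318); the coreceptor gene Cd4 had 1.3, 0.874 and 1.24 CPM against 5.96 to 18.4 CPM with a median of 11 and missed the threshold (FDR 0.0566). In 8 of the 17 T cell genes every edited library lay below every control, against 12.1% of all autosomal genes, and the list's median was -1.94. Of all autosomal genes 5.44% were called lower, so 1 call in 17 is near that share. The list held 4 called genes without sgEzh2 + sgLuc replicate 3, and 0 without any 1 of the sgRunx1 + sgLuc replicates or sgLuc replicate 4, 5 or 6. The interleukin 7 receptor gene Il7r, which lymphoid progenitors and T cells express, had 1.63, 1.25 and 1.47 CPM against 7.67 to 24.5 CPM with a median of 21 (log2 fold change -3.68 ± 0.98, FDR 0.0255); with Il5ra it made 2 of 16 growth factor and cytokine receptor genes that fell, none having risen. Klra8 kept its call without each single library, Klrd1 lost it without sgRunx1 + sgLuc replicate 2 or 3 (FDR 0.0698 to 0.0874). Klrb1c lost it without sgRunx1 + sgLuc replicate 2 or 3 (FDR 0.0512 to 0.0736). Gzma lost it without sgRunx1 + sgLuc replicate 1, 2 or 3 (FDR 0.102 to 0.137). Ltb lost it without sgRunx1 + sgLuc replicate 1, 2 or 3 or sgLuc replicate 4, 5 or 6 (FDR 0.0519 to 0.13). Il7r lost it without sgRunx1 + sgLuc replicate 1, 2 or 3 (FDR 0.0975 to 0.124).

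Among dendritic cell genes 3 of 16 fell and 0 rose (median -1.44), and 1 of the 3, Klrd1, also marks NK cells. Ly6d, a surface antigen of early B cells and plasmacytoid dendritic cells, had 7.2, 3.16 and 3.72 CPM against 32.2 to 92.6 CPM with a median of 70.0 (log2 fold change -3.76 ± 0.92, FDR 0.0162). Itgax, which encodes CD11c, had 15.8, 16.2 and 15.1 CPM against 25.5 to 70.5 CPM with a median of 41.7 (log2 fold change -1.52 ± 0.43, FDR 0.0363). Of 10 MHC class II genes, which B cells and dendritic cells use to present antigen, 2 fell and 0 rose. In 8 the groups did not overlap with sgRunx1 + sgLuc below, against 12.1% of all autosomal genes. H2-Ob had 12.7, 11.7 and 8.35 CPM against 28.5 to 65.9 CPM with a median of 40.4 (log2 fold change -2.03 ± 0.50, FDR 0.018) and H2-DMb2 11.6, 9.92 and 11.5 CPM against 25.7 to 55.1 CPM with a median of 32.2 (log2 fold change -1.73 ± 0.47, FDR 0.03). Both encode chains of the molecules that govern peptide loading. The antigen-presenting chain H2-Ab1 had 178, 143 and 337 CPM against 377 to 1035 CPM with a median of 634 and missed the threshold (FDR 0.0513). No MHC class II gene was called without any 1 of the sgRunx1 + sgLuc replicates 1, 2 and 3, and 8 were without sgEzh2 + sgLuc replicate 3. Ly6d lost its call without sgRunx1 + sgLuc replicate 1, 2 or 3 (FDR 0.0583 to 0.104). Itgax lost it without sgRunx1 + sgLuc replicate 1, 2 or 3 or sgLuc replicate 1, 2 or 5 (FDR 0.0535 to 0.145).

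Several further genes with large or precise decreases belong to no cell type list. Cldn1, a tight junction protein, had 3 reads over the sgRunx1 + sgLuc libraries and 5095 over the sgLuc libraries, a level 987 times (95% interval 337 to 4786) lower (FDR 7.01e-04). Cacna1h, a T-type calcium channel subunit, had 0.255, 0 and 0.259 CPM against 2.11 to 39.3 CPM with a median of 18 (log2 fold change -6.72 ± 1.18, FDR 0.0021). Its relative Cacna1i had 0.306, 0 and 0 CPM against 1.77 to 12.5 CPM with a median of 5.96 (log2 fold change -6.11 ± 1.32, FDR 0.00789). Both channel genes were at 0 in at least 1 edited library. Among genes that fell and could be named by rule, the 4 with the smallest p were Hvcn1, a voltage-gated proton channel (27.5, 29.3 and 26.7 CPM against 69.7 to 97.7 CPM with a median of 85.5, FDR 5.41e-05), Sema7a, a membrane-anchored semaphorin (1.51, 1.16 and 1.34 CPM against 12.9 to 24.8 CPM with a median of 18.5, FDR 8.39e-05), Agpat4, an acyltransferase of phospholipid synthesis (2.09, 3.02 and 2.28 CPM against 10.6 to 21.9 CPM with a median of 20.5, FDR 4.03e-04), and Fbxo10, a substrate receptor of ubiquitin ligases (2.78, 3.05 and 1.68 CPM against 24.6 to 45.3 CPM with a median of 36, FDR 5.08e-04). The rule admitted only genes without overlap between groups, so the lack of overlap in these 4 is no separate result. Among abundant genes, Tmsb10, which binds actin monomers, had 351, 309 and 479.8 CPM against 565 to 1325 CPM with a median of 1038 (log2 fold change -1.42 ± 0.33, FDR 0.0121), the calcium pump gene Atp2a3 463, 481 and 431 CPM against 623 to 732 CPM with a median of 679.8 (log2 fold change -0.58 ± 0.14, FDR 0.0137), and the ribosomal protein gene Rps29 321, 322 and 458 CPM against 601 to 766 CPM with a median of 621 (log2 fold change -0.81 ± 0.20, FDR 0.0149). Cacna1i lost its call without sgRunx1 + sgLuc replicate 2 (FDR 0.0556). Tmsb10 lost it without sgRunx1 + sgLuc replicate 1 or 2 (FDR 0.0782 to 0.0961). Atp2a3 lost it without sgRunx1 + sgLuc replicate 1, 2 or 3 (FDR 0.0626 to 0.0835). Rps29 lost it without sgRunx1 + sgLuc replicate 1 or 2 (FDR 0.119 to 0.121).

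Megakaryocyte and platelet genes rose: 8 of 20 were higher and 0 lower, with a median log2 fold change of 1.02. Selp, the adhesion receptor stored in platelet granules and also made by endothelium, had 36.9, 39.5 and 25.1 CPM with sgRunx1, against 4.44 to 10.1 CPM with a median of 6.17 in sgLuc marrow (log2 fold change 2.37 ± 0.50, FDR 0.00731). Gp5, a subunit of the receptor for von Willebrand factor, had 4.44, 6.85 and 6.05 CPM against 0.454 to 1.82 CPM with a median of 1.28 (log2 fold change 2.27 ± 0.45, FDR 0.00453). Tubb1, the tubulin of platelets, had 2.91, 2.31 and 1.63 CPM against 0 to 0.361 CPM with a median of 0.158 (log2 fold change 3.73 ± 0.70, FDR 0.00315). In these 3 genes the edited libraries lay above every control. Gp6, the platelet receptor for collagen, had 94 reads over the sgRunx1 + sgLuc libraries and 3 over the sgLuc libraries, a level 53.9 times (95% interval 17.9 to 266) higher (FDR 0.0208). Ppbp, the precursor of a platelet chemokine, had 10.2, 12.6 and 8.69 CPM against 0.162 to 1.8 CPM with a median of 1.14 (log2 fold change 3.28 ± 0.95, FDR 0.0391). Alox12, the lipoxygenase of platelets, which stands in another list, had 3.68, 5.06 and 2.79 CPM against 0.154 to 0.475 CPM with a median of 0.304 (log2 fold change 3.67 ± 0.77, FDR 0.0063). Treml1, Itgb3 and Mpig6b, which encode platelet surface proteins, were also called higher, and 12 genes of the list did not pass the test. The mean level of the list was 2.73 to 3.03 log2 CPM in sgRunx1 + sgLuc libraries and 0.49 to 1.85 in sgLuc libraries, of which replicate 4 was the lowest and the other 5 lay at 1.54 to 1.85. The summed level of the list, which its abundant members set, overlapped between groups (499 to 629 CPM in sgRunx1 + sgLuc and 443 to 564 CPM in sgLuc libraries). The list held 5 called genes without sgLuc replicate 3, 4 or 5, and 3, 3 and 5 without sgRunx1 + sgLuc replicate 1, 2 and 3. Ppbp lost its call without sgRunx1 + sgLuc replicate 1, 2 or 3 or sgLuc replicate 1, 2, 3, 4, 5 or 6 (FDR 0.052 to 0.127). Gp6 lost it without sgRunx1 + sgLuc replicate 1 or 2 (FDR 0.0713 to 0.0851).

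Genes of the immediate early response and AP-1, which cells switch on within minutes of a stimulus, stood high with sgRunx1, but few passed the test. Of 17 tested, 2 rose and 0 fell (median 1.11). In 10 the groups did not overlap with sgRunx1 + sgLuc on top, against 9.22% of all autosomal genes. The zinc finger gene Klf6 had 842, 877 and 727 CPM against 193 to 429.5 CPM with a median of 298 (log2 fold change 1.46 ± 0.24, FDR 0.00138). Jund, an AP-1 subunit, had 633, 618 and 786 CPM against 99.97 to 390.2 CPM with a median of 209 (log2 fold change 1.48 ± 0.32, FDR 0.00731). Both were higher in all 3 edited libraries than in any control. Fosb, another AP-1 subunit, had 1828, 2049 and 2136 CPM against 0.259 to 626 CPM with a median of 424 and did not pass the test (FDR 0.0907). In that gene sgLuc replicate 4 was near 0, and the other 5 controls lay at 409 to 626 CPM. Without that library 6 genes of the list passed. The mean level of the list was 8.75 to 8.94 log2 CPM in sgRunx1 + sgLuc libraries, 4.89 in sgLuc replicate 4 and 7.23 to 8.51 in the other sgLuc libraries. Fosl1, the AP-1 subunit Fra-1, which is not among the 17, had 13.1, 15.2 and 13.3 CPM against 0.0324 to 4.57 CPM with a median of 1.44 (log2 fold change 2.85 ± 0.83, FDR 0.0394), and Zfand2a, an arsenite-inducible zinc finger gene, 71.8, 69.7 and 70.5 CPM against 17.8 to 36.5 CPM with a median of 31 (log2 fold change 1.28 ± 0.17, FDR 2.55e-04). Fosl1 lost its call without sgRunx1 + sgLuc replicate 1, 2 or 3 or sgLuc replicate 1, 2 or 3 (FDR 0.0646 to 0.118).

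Single innate immune genes rose strongly, while few other members of their lists were called with all libraries. C4b, which encodes complement component 4 (GRCm38 chromosome 17, 34728380 to 34743882, strand minus), had 104, 77.1 and 239 CPM with sgRunx1, against 1.43 to 5.05 CPM with a median of 3.08 in sgLuc marrow (log2 fold change 5.49 ± 0.87, FDR 0.00105). The near-identical gene C4a can share its reads, so that the value may belong to either copy. Among the 12 tested complement genes it was the 1 called. The list's median was -1.47, while its summed level was 1965.8 to 2047.9 CPM in sgRunx1 + sgLuc and 1353.3 to 1567.5 CPM in sgLuc libraries. Without sgEzh2 + sgLuc replicate 3, 2 complement genes were called higher and 3 lower. The number lower was 1 without sgLuc replicate 4 or 6 and 6 with DESeq2. The complement gene C1qc of macrophages had 5.46, 4.46 and 8.66 CPM against 11.3 to 64 CPM with a median of 33.3 and missed the threshold (FDR 0.0512). Ccl24, a chemokine that attracts eosinophils (GRCm38 chromosome 5, 135569937 to 135573049, strand minus), had 18, 15 and 19.2 CPM against 0.13 to 0.979 CPM with a median of 0.405 (log2 fold change 5.24 ± 0.59, FDR 5.41e-05). It was the only chemokine called of 13, a count of 3 higher and 2 lower without sgEzh2 + sgLuc replicate 3. Cxcl2 and Ccl2, which attract neutrophils and monocytes, did not pass, although no control reached their edited libraries (165, 181 and 185 CPM against 0.421 to 64.1 CPM with a median of 29.2, FDR 0.0966, and 66.5, 72.6 and 66.5 CPM against 1.3 to 24.5 CPM with a median of 19.9, FDR 0.0991). Cd14, the coreceptor for bacterial lipopolysaccharide on monocytes and activated neutrophils, had 254, 323 and 224 CPM against 12.6 to 37 CPM with a median of 30.8 (log2 fold change 3.21 ± 0.58, FDR 0.00254). Of 15 monocyte genes (with sgEzh2 + sgLuc replicate 3 left out, 2 rose and 2 fell) it was the 1 that rose, and Cx3cr1, the fractalkine receptor of patrolling monocytes, the 1 that fell (22.2, 28.2 and 17.8 CPM against 57.2 to 187 CPM with a median of 101, log2 fold change -2.23 ± 0.64, FDR 0.0377). Of 17 tissue macrophage genes 0 rose and 1 fell, the heme-degrading enzyme Hmox1 (28.3, 34.4 and 29.2 CPM against 59.7 to 88.6 CPM with a median of 71.3, log2 fold change -1.23 ± 0.35, FDR 0.0371). The number lower was 4 without sgEzh2 + sgLuc replicate 3, 3 without sgLuc replicate 6 and 8 with DESeq2. The number higher was 1 without sgEzh2 + sgLuc replicate 3, without sgLuc replicate 3 and with DESeq2. The groups did not overlap in 4 of the 17 with sgRunx1 + sgLuc on top and in 5 with it below, against 9.22% and 12.1% of all autosomal genes. Cx3cr1 lost its call without sgRunx1 + sgLuc replicate 1, 2 or 3 or sgLuc replicate 1, 2, 4 or 6 (FDR 0.05 to 0.154). Hmox1 lost it without sgRunx1 + sgLuc replicate 1, 2 or 3 or sgLuc replicate 1, 2, 3 or 5 (FDR 0.0505 to 0.16), whereas C4b, Ccl24 and Cd14 kept theirs without each single library.

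Of 15 genes of inflammation and NF-kB feedback 1 rose and 2 fell, against 2.71% and 5.44% of all autosomal genes. With counts this small nothing is read about the list: 0 rose without any 1 of the sgRunx1 + sgLuc replicates or sgLuc replicate 1, 2, 3 or 4, and 1 fell without each of the sgRunx1 + sgLuc replicates. Tnfaip3, which encodes the inhibitor A20, had 126, 124 and 143 CPM against 31.7 to 75.7 CPM with a median of 53.4 (log2 fold change 1.21 ± 0.36, FDR 0.0435). Nfkb2, the precursor of the p52 subunit, had 49.4, 48.5 and 47.1 CPM against 66 to 80.2 CPM with a median of 77.8 (log2 fold change -0.64 ± 0.13, FDR 0.00459), and the cytokine gene Il6 0.179, 0.134 and 0 CPM against 0.324 to 4.84 CPM with a median of 2.14 (log2 fold change -4.30 ± 1.08, FDR 0.0209). Il6 stands in the basophil list as well and was near the floor in all 3 edited libraries. Of 20 genes of the type I interferon response, 1 rose and 0 fell. It was Ifit2, an interferon-induced RNA-binding protein, with 44.2, 39.5 and 45.9 CPM against 16.8 to 29.9 CPM with a median of 21.9 (log2 fold change 0.93 ± 0.26, FDR 0.0337). Tnfaip3 lost its call without sgRunx1 + sgLuc replicate 1, 2 or 3 or sgLuc replicate 1, 2, 3 or 4 (FDR 0.0575 to 0.126). Il6 lost it without sgRunx1 + sgLuc replicate 1, 2 or 3 (FDR 0.0686 to 0.093). Ifit2 lost it without sgRunx1 + sgLuc replicate 1, 2 or 3 or sgLuc replicate 1, 2, 5 or 6 (FDR 0.0506 to 0.113).

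Some developmental regulators that are silent or low in adult marrow rose. Hmga2, a chromatin protein of fetal stem cells, had 11.1, 9.7 and 5.22 CPM with sgRunx1, against 0.0631 to 1 CPM with a median of 0.209 in sgLuc marrow (log2 fold change 4.81 ± 0.82, FDR 0.00169). Plagl1, an imprinted zinc finger gene, had 6.33, 8.29 and 2.82 CPM against 0.0631 to 0.684 CPM with a median of 0.14 (log2 fold change 4.49 ± 0.90, FDR 0.00476). They were the 2 called of 7 tested genes of the fetal program, both higher. Hoxb5, a homeobox gene of stem cells, had 3.06, 3.58 and 2.17 CPM against 0 to 0.616 CPM with a median of 0.032 (log2 fold change 4.36 ± 1.00, FDR 0.0109) and was the only called gene of 19 Hoxa, Hoxb and cofactor genes, a count that was 2 without sgLuc replicate 3 or 5 and 5 without sgEzh2 + sgLuc replicate 3. Its neighbours in the cluster, Hoxb3 (2.55, 3.2 and 2.66 CPM against 0.76 to 1.6 CPM with a median of 1.25, FDR 0.0713) and Hoxb6 (1.02, 1.01 and 1.01 CPM against 0 to 0.411 CPM with a median of 0.107, FDR 0.126), did not overlap between groups but missed the threshold. Lhx1, a LIM homeobox gene of the embryo, had 10.8, 13.2 and 5.35 CPM against 0.727 to 2.24 CPM with a median of 1.76 (log2 fold change 2.60 ± 0.60, FDR 0.0113). Faim2, an inhibitor of Fas-induced cell death best known in neurons, had 19.6, 9.21 and 19.2 CPM against 0.0316 to 1.88 CPM with a median of 0.689 (log2 fold change 4.24 ± 0.76, FDR 0.00238). Of 20 stem and progenitor genes none was called with all libraries, but 3 rose and 1 fell without sgEzh2 + sgLuc replicate 3 and 1 fell without sgLuc replicate 4. Ly6a, which encodes Sca-1, had 7.76, 2.87 and 14 CPM against 14.3 to 54.4 CPM with a median of 36.5 (FDR 0.0621) and Hlf, a transcription factor of stem cells, 15.4, 15.7 and 12.7 CPM against 4.34 to 9.03 CPM with a median of 6.17 (FDR 0.298, or 0.00237 without sgEzh2 + sgLuc replicate 3). Lhx1 lost its call without sgRunx1 + sgLuc replicate 1 or 2 (FDR 0.0507 to 0.0734).

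Among the remaining genes named for rising, Emp1, an epithelial membrane protein, had 71, 78 and 26.3 CPM against 0.709 to 6.04 CPM with a median of 3.59 (log2 fold change 3.99 ± 0.59, FDR 6.77e-04). Hebp1, a heme-binding protein, had 50.2, 59.4 and 61.5 CPM against 1.94 to 7.46 CPM with a median of 5.51 (log2 fold change 3.52 ± 0.53, FDR 7.81e-04). Both lie on the distal part of chromosome 6. Ces2g, a carboxylesterase with close relatives that can share its reads, had 22.2, 22.9 and 19.7 CPM against 1.94 to 4.76 CPM with a median of 3.24 (log2 fold change 2.71 ± 0.82, FDR 0.0475). Small and precise increases were seen in 2 enzymes of adenine nucleotides, the mitochondrial adenylate kinase gene Ak3 (60.7, 62.1 and 56.9 CPM against 27.2 to 29.4 CPM with a median of 28.6, log2 fold change 1.07 ± 0.12, FDR 6.57e-05) and the adenylosuccinate synthase gene Adss (199, 182 and 181 CPM against 109.5 to 121 CPM with a median of 118, log2 fold change 0.69 ± 0.09, FDR 2.82e-04). Their replicates differed little. Of the abundant genes, Igfbp4, which binds insulin-like growth factors, had 531, 509 and 696 CPM against 189 to 417 CPM with a median of 253 (log2 fold change 1.10 ± 0.18, FDR 0.00138) and the ribosomal protein gene Rpl9 739, 735 and 935 CPM against 506 to 656 CPM with a median of 553 (log2 fold change 0.51 ± 0.16, FDR 0.0497). Ces2g lost its call without sgRunx1 + sgLuc replicate 1, 2 or 3 or sgLuc replicate 1, 2, 3, 4, 5 or 6 (FDR 0.063 to 0.129). Rpl9 lost it without sgRunx1 + sgLuc replicate 1, 2 or 3 or sgLuc replicate 1, 2, 3, 4 or 6 (FDR 0.0513 to 0.213).

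With all libraries, granulocytic and erythroid lists held no called gene, and lists of growth and metabolism few. None of 12 primary granule genes, 17 neutrophil secondary and tertiary granule genes, 20 erythroid genes, 11 heme synthesis genes and 15 myeloid transcription factors was called, with medians between -0.23 and 0.19. Mpo, the peroxidase of primary granules, had 4499, 4449.8 and 5422 CPM against 1574 to 6220.4 CPM with a median of 2706 (FDR 0.693), and Chil3, a chitinase-like protein of neutrophil precursors, 7652, 7492 and 7486 CPM against 2886 to 4022 CPM with a median of 3067 (FDR 0.345). Chil3 did not overlap between groups, and its FDR was 0.00763 without sgEzh2 + sgLuc replicate 3. Without that library, which nearly lacks granulocyte transcripts, 1 gene rose in each granule list, and 1 myeloid transcription factor gene rose and 1 fell. None of 12 p53 targets, 7 CDK inhibitors, 16 genes of MYC and ribosome biogenesis and 17 of cholesterol synthesis was called, although 1 p53 target and 1 CDK inhibitor fell and 1 cholesterol gene rose without sgEzh2 + sgLuc replicate 3. In 26 cell cycle genes the only call was Ccne1, the G1 cyclin E1 (17.8, 17 and 21.6 CPM against 21.9 to 30.3 CPM with a median of 25.5, log2 fold change -0.46 ± 0.13, FDR 0.0339). The only called gene of 16 in glycolysis was lower, Ldha, the lactate dehydrogenase (275, 283 and 352 CPM against 410.2 to 635 CPM with a median of 533, log2 fold change -0.80 ± 0.18, FDR 0.00931). Of 18 oxidative phosphorylation genes 2 subunits of cytochrome c oxidase fell, Cox5a (45, 46 and 63.4 CPM against 72.9 to 89.1 CPM with a median of 85, log2 fold change -0.71 ± 0.17, FDR 0.0126) and Cox5b (94, 89.9 and 136 CPM against 135 to 169.5 CPM with a median of 149.9, log2 fold change -0.51 ± 0.15, FDR 0.0429), of which Cox5b overlapped between groups. Of 13 tested genes of stroma, bone and endothelium (5 lower without sgEzh2 + sgLuc replicate 3) 1 fell, the alkaline phosphatase Alpl, which neutrophils make too (0.102, 0.0224 and 0.0259 CPM against 2.89 to 5.42 CPM with a median of 3.34, log2 fold change -6.19 ± 1.58, FDR 0.0212). Ccne1 lost its call without sgRunx1 + sgLuc replicate 1 or 2 or sgLuc replicate 1, 2 or 5 (FDR 0.0557 to 0.206). Ldha lost it without sgRunx1 + sgLuc replicate 1 or 2 (FDR 0.0693 to 0.0702). Cox5a lost it without sgRunx1 + sgLuc replicate 1 or 2 (FDR 0.107 to 0.108). Cox5b lost it without sgRunx1 + sgLuc replicate 1 or 2 or sgLuc replicate 1, 2, 3, 4, 5 or 6 (FDR 0.0522 to 0.29). Alpl lost it without sgRunx1 + sgLuc replicate 1, 2 or 3 (FDR 0.0782 to 0.115).

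Of 28 tested genes that other studies have reported as RUNX1 targets, 2 rose (Hmga2 and Alox12, above) and 4 fell, against 2.71% and 5.44% of all autosomal genes. The number higher was 5 without sgEzh2 + sgLuc replicate 3 and the number lower 2 without sgRunx1 + sgLuc replicate 2. The list had a median log2 fold change of -0.05. Besides Blk and the early B cell factor gene Ebf1, the genes that fell were Cd244a, a receptor of NK and progenitor cells, with 3.65, 5.87 and 3.52 CPM against 16 to 37.6 CPM with a median of 26.2 (log2 fold change -2.57 ± 0.48, FDR 0.00297), and Tnfrsf17, the BCMA receptor of plasma cells, with 0, 0.179 and 0 CPM against 0.713 to 6.44 CPM with a median of 2.66 (log2 fold change -5.64 ± 1.16, FDR 0.0057). To set sequence beside these values, the RUNX core motif TGTGGT was searched on both strands (ACCACA on the other) in the RefSeq promoter windows of GRCm38.p6, which run from 250 bases before to 50 after a gene's start. It was present in 16.9% of all 27025 windows, in 13.5% of 260 windows of protein-coding genes that rose, in 17.0% of 540 of those that fell and in 12.9% of 9595 of those not called. These shares were not tested against each other, and a match describes the letters, not binding. Of 77 called protein-coding genes named here 61 had a window, and 9 held the motif in the 250 bases before the start, against 14.2% of all windows. The 3 sequences printed here are those with the largest changes, up to 2 in each direction, among windows with at most 30 bases in annotated exons. They are written 5′ to 3′ along the gene's strand with the motif in capitals, and the last base is the one before the start.
Adss, chr1:177796510-177796759, strand minus: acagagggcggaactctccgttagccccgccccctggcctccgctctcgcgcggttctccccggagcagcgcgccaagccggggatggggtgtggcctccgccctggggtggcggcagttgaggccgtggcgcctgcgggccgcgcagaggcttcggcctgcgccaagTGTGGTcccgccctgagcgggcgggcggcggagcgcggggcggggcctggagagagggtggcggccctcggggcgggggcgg
Fcer1a, chr1:173227230-173227479, strand minus: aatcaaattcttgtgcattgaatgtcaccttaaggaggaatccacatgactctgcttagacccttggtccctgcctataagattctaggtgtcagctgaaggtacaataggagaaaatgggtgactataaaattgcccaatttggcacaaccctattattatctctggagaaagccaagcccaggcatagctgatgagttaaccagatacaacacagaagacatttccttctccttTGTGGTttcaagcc
Gzma, chr13:113100982-113101231, strand minus: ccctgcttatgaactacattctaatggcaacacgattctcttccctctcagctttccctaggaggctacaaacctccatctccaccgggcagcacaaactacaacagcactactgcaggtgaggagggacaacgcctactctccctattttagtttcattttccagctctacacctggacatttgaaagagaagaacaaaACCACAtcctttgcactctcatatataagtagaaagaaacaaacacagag
In Fcer1a, which had 2 reads in all with sgRunx1, the motif starts 14 bases before the start. In the granzyme gene Gzma it starts 50 bases and in Adss, which rose, 82 bases before it.

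The contrast with the other single-guide groups, which contains no sgLuc library, asked which of these differences also separate sgRunx1 + sgLuc marrow from marrow edited at Ezh2 or Bcor. Of the autosomal genes 1836 (10.8%) were called, 548 higher (3.23%) and 1288 lower (7.58%) with sgRunx1. Both comparisons share the sgRunx1 + sgLuc libraries, so their values are set side by side and not counted together. C4b was higher than in the single-guide groups by a log2 fold change of 4.84 ± 0.85 (FDR 0.00189), Ccl24 by 6.31 ± 0.63 (FDR 2.93e-05), Cd14 by 2.13 ± 0.57 (FDR 0.0227) and Faim2 by 4.61 ± 0.77 (FDR 0.00137). The platelet genes Selp at 2.98 ± 0.51 (FDR 0.00164), Gp5 at 2.25 ± 0.45 (FDR 0.00425) and Tubb1 at 4.46 ± 0.72 (FDR 0.00101) were higher too, as was Klf6 at 0.97 ± 0.24 (FDR 0.0162). These genes differed from both references in the same direction. Of 20 platelet genes 8 were called higher and 1 lower in this contrast, and of 17 immediate early genes Klf6 alone was called. Among genes lower with sgRunx1, Prss34 differed by -7.85 ± 1.49 (FDR 0.00312), Alox15 by -5.35 ± 1.04 (FDR 0.00368), Ms4a1 by -6.95 ± 0.94 (FDR 4.26e-04), Jchain by -4.06 ± 0.93 (FDR 0.0101) and Klrd1 by -3.16 ± 0.65 (FDR 0.00542). Of 17 basophil and mast cell genes 2 were called higher and 5 lower in this contrast. Of 17 B cell progenitor genes 12 were called lower in this contrast, 8 to 15 with 1 library left out and 6 with the libraries of the contrast alone. Their summed level varied in the single-guide marrow, from 113 to 3823 CPM in sgBcor + sgLuc libraries. Of 17 T cell genes 12 were called lower. That count was 9 without sgEzh2 + sgLuc replicate 3, the T cell-rich library, 2, 0 and 1 without sgRunx1 + sgLuc replicate 1, 2 and 3, and 0 with the libraries of the contrast alone. Without sgRunx1 + sgLuc replicate 1, 2 and 3, 726, 564 and 768 genes were called.

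Some genes that differed from sgLuc did not pass the test against the single-guide groups. Emp1 differed from these by -0.50 ± 0.60 (FDR 0.646), Hebp1 by 0.62 ± 0.53 (FDR 0.497), Runx3 by 0.16 ± 0.14 (FDR 0.477), Fosl1 by 0.88 ± 0.82 (FDR 0.537), Hmox1 by -0.07 ± 0.34 (FDR 0.925), Rpl9 by -0.06 ± 0.16 (FDR 0.843) and Rps29 by -0.21 ± 0.19 (FDR 0.519). Emp1 was at 12.2 to 101 CPM in sgEzh2 + sgLuc and 73.3 to 153 CPM in sgBcor + sgLuc marrow, so the level with sgRunx1 lies within that of other edited marrow. Hebp1 was at 2.56 to 47.4 CPM and 37.3 to 50.4 CPM in the same groups. Jund and Hoxb5 did not pass either. Without sgEzh2 + sgLuc replicate 3 they differed by 0.55 ± 0.35 (FDR 0.374) and 2.29 ± 0.89 (FDR 0.107). Hmga2 differed by 1.03 ± 0.74 (FDR 0.409) with all libraries and by 2.53 ± 0.49 (FDR 0.0025) without sgEzh2 + sgLuc replicate 3, which was the highest of that group at 25.3 CPM against 0.568 and 1.76 CPM in the other libraries. Without that replicate Cd14 differed by 1.85 ± 0.25 (FDR 1.38e-04) and C4b by 4.56 ± 0.86 (FDR 0.00287), and the decreases of Prss34 and Ms4a1 were -8.15 ± 1.12 (FDR 2.80e-04) and -6.55 ± 0.89 (FDR 2.49e-04). Some summed levels overlapped. Constant and V segments took 604 and 103 CPM in sgBcor + sgLuc replicate 2, but 6825 and 2210 CPM in sgEzh2 + sgLuc replicate 2. The plasma cell list summed to 431 to 899 CPM in sgBcor + sgLuc and 814 to 1308 CPM in sgEzh2 + sgLuc libraries. In sgRunx1 + sgLuc it took 495 to 525 CPM. The basophil and mast cell list took 276 to 453 CPM, 68.9 to 540 CPM and 248 to 263 CPM in these groups.

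In the double-guide groups, which carry the Runx1 guide with one against Ezh2 or Bcor, several of these levels recurred and others did not. C4b was at 537 to 1658 CPM in the 4 sgEzh2 + sgRunx1 libraries and 49.96 to 294 CPM in the 3 sgBcor + sgRunx1 libraries, Prss34 at 0 to 0.139 and 0 to 0.0278 CPM, and Ms4a1 at 0 to 0.243 and 0.222 to 0.452 CPM. In C4b and Ms4a1 every library with the Runx1 guide lay on the same side of every library without it. In Prss34 the exception was sgRunx1 + sgLuc replicate 1 at 0.791 CPM, above sgEzh2 + sgLuc replicate 3 at 0.547 CPM. In Emp1 and Hebp1 edited libraries with and without the Runx1 guide overlapped.

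**Figure D5:**
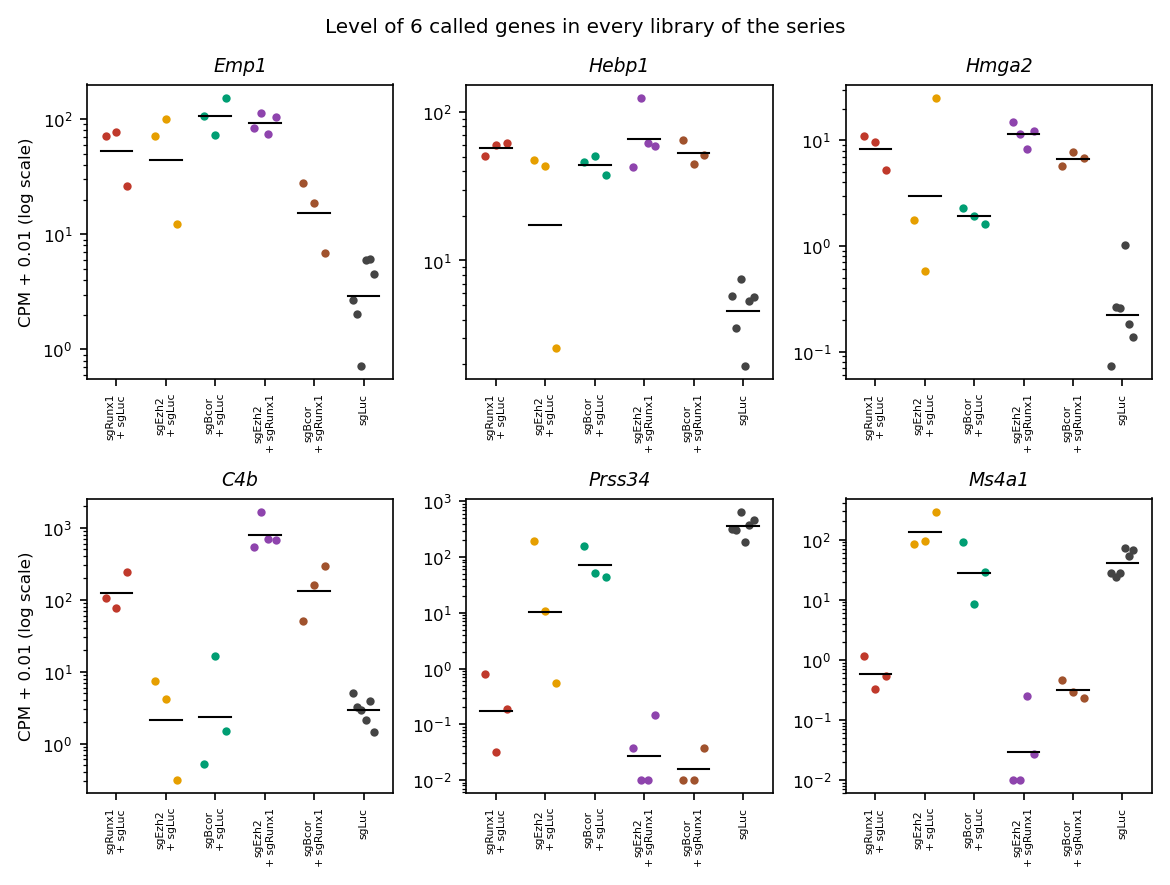
Level of 6 called genes in every library of the series (vertical axes, CPM + 0.01 on a log scale), by group from sgRunx1 + sgLuc on the left to sgLuc on the right, with the geometric mean as a bar. C4b is high and Prss34 and Ms4a1 are low in all 3 groups with the Runx1 guide (Prss34 also in sgEzh2 + sgLuc replicate 3), while Emp1 and Hebp1 are high in most edited libraries whatever the guide; sgEzh2 + sgLuc replicate 3 is the low point for Hebp1 and Emp1 and the high point for Hmga2 in its group.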

How the data were processed

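RNA of whole marrow was sequenced from oligo(dT)-selected libraries, per the labels' protocols, and fastp, HISAT2, HTSeq and the build mm9 are named in the submitters' processing notes, without versions or the use of strand. The authors deposited raw read counts for 47069 genes and FPKM values; for all 14383 genes checked, the deposited FPKM values followed from the counts within a tolerance of 1e-06, and they served for that check alone. Genes on X and Y were fitted but not described.

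The counts were fitted with edgeR 4.0.16 (R 4.3.3): filterByExpr with a minimum count of 10 kept 17659 genes, TMM scaled the libraries, and a quasi-likelihood model with 1 mean per group over all 22 libraries (16 residual degrees of freedom) gave p-values adjusted by Benjamini-Hochberg over all genes tested. The SE is the log2 fold change divided by the root of the F statistic. Sharing 1 spread over the groups means that a library that stands apart in another group widens it. DESeq2 1.42.0, RLE scaling, no filter, the libraries of the contrast alone, a replicate block and leaving out each library were the alternatives. Same-numbered libraries of the compared groups did not deviate together (correlations 0.00902, 0.0274 and 0.0071), so the numbers were not taken as pairs. No replicate pair held identical values.

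Genes were named by rule among called genes without overlap, with a mean of at least 4 CPM, leaving out predicted genes, pseudogenes and receptor segments: in each direction the 10 with the largest change, the 4 with the smallest p and the 4 with the highest level, and up to 4 genes by p from each of 36 lists. Other genes were named after their values were seen, and a gene that the rule names is not reported here. The members and lists were chosen with earlier results of these data known. Gene positions and types come from GENCODE M21 (GRCm38), matched by ID for 46574 genes, and were not converted to or from mm9. Promoter sequences are from RefSeq.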

Additional observations from a re-analysis of the deposited data

Results flagged for a closer look

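In 17 of 119 genes and lists examined, 1 of the 6 sgLuc libraries lay far from the others on the log2 scale: its gap to the nearest library, as a share of the whole range, exceeded the 95% critical value of Dixon's test. Chance gives this in about 1 of 20 groups, and the genes and lists share libraries.

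Library sgLuc replicate 4 was the distant one 8 times. It was the lowest for Fosb (0.259 CPM, next 409 CPM; gap share 0.944), Cxcl2 (0.421 CPM, next 16 CPM; gap share 0.718), Ccl2 (1.3 CPM, next 12.5 CPM; gap share 0.77), Cd14 (12.6 CPM, next 28.1 CPM; gap share 0.746) and Ppbp (0.162 CPM, next 0.801 CPM; gap share 0.643). It was also the lowest for the mean log2 CPM of the immediate early list (4.89, next 7.23, gap share 0.647) and of the platelet list (0.49, next 1.54, gap share 0.773). It was the highest for Hba-a2 (19 CPM, next 4.82 CPM; gap share 0.652), whose near-identical copy can share its reads.

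Library sgLuc replicate 3 was the lowest for Agpat4 (10.6 CPM, next 19.4 CPM; gap share 0.833), Cldn1 (11.8 CPM, next 24.1 CPM; gap share 0.715), Tmsb10 (565 CPM, next 1015 CPM; gap share 0.688) and Relb (17 CPM, next 23.7 CPM; gap share 0.643), and the highest for Elane (3514 CPM, next 1582 CPM; gap share 0.64). Replicate 2 was the lowest for Cox5a (72.9 CPM, next 84.6 CPM; gap share 0.743) and the highest for Irf8 (786 CPM, next 520.0 CPM; gap share 0.644). Replicate 1 was the highest for Cbfa2t2 (19.9 CPM, next 17.6 CPM; gap share 0.641) and replicate 5 for Rps29 (766 CPM, next 649 CPM; gap share 0.678). The part of these libraries in the results was examined by leaving each out.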

How the results depend on the processing

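Of 78 called genes named and examined in this way, 42 kept their call in all 16 settings, and none of the genes examined turned direction. Mcpt8, Ms4a2, Treml1, Itgb3, Mpig6b, Ebf1, Fam19a4, Magi1 and Pcsk6 were not examined in these settings. Runx1 did not pass the test in any setting (FDR 0.0896 to 0.694). The 1385 calls against sgLuc were 2194 with DESeq2, 2888 with the libraries of the contrast alone and 519 with the replicate block, and 491 to 2559 with 1 library left out, the highest without sgEzh2 + sgLuc replicate 3. RLE scaling gave 1378 and no filter 998. With sgEzh2 + sgLuc replicate 3 and sgLuc replicate 4 left out together, an alternative chosen after seeing the data, 2319 were called. The 1836 calls against the single-guide groups were 502 with the libraries of the contrast alone, 1137 with the replicate block and 564 to 2256 with 1 library left out. The cause of these differences was not tested, but leaving out 1 of the 3 sgRunx1 + sgLuc libraries also leaves fewer samples. With the replicate block 31 of the 78 named genes lost their call; the numbers do not pair the libraries, so this is no measure of a weaker effect. Genes at a few reads with sgRunx1 are limited by depth.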

Other observations

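The following genes and regions were chosen after their values were seen. On chromosome 6, within 25 Mb of Gt(ROSA)26Sor, 25 of 431 tested genes (5.8%) were called higher, against 2.32% of the 690 genes elsewhere on that chromosome and 2.71% of all autosomal genes. Emp1 and Hebp1 lie 22.3 and 22.1 Mb from that locus. Fam19a4, a secreted chemokine-like protein, lies 16.13 Mb from it and had 7.07, 6.9 and 6.44 CPM with sgRunx1, against 19 reads over the sgLuc libraries. Unlike Emp1 and Hebp1, it was at 0 to 0.114 CPM in sgEzh2 + sgLuc and 0 to 0.0243 CPM in sgBcor + sgLuc marrow. It was called higher against these groups (log2 fold change 8.38 ± 0.82, FDR 2.93e-05). The double-guide libraries held 0.862 to 2.48 CPM. Magi1, a scaffold protein of cell junctions, lies 19.09 Mb from that locus and had 7.25, 6.38 and 5.38 CPM with sgRunx1, against 17 reads over the sgLuc libraries. Against the single-guide groups it did not pass the test (log2 fold change 1.98 ± 1.00, FDR 0.22). The labels do not give the locus of the Cas9 transgene, and its part in these differences was not tested. Decreases were most frequent on chromosome 12, where 13.6% of tested genes fell, and on chromosome 6 outside the window, where 13.8% did; both chromosomes carry immunoglobulin segments.

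Pcsk6, a proprotein convertase, had 0, 24.6 and 0 CPM in sgRunx1 + sgLuc replicates 1, 2 and 3 and no read in the sgLuc libraries, so that 1 library makes the whole difference. Of 50 small nuclear RNA genes 13 rose and 0 fell, and of 979 processed pseudogenes 55 rose and 29 fell. Over all autosomal genes 2.71% rose and 5.44% fell. The libraries were selected by oligo(dT), and copies of the same gene can share reads.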
